A study of Mus musculus with 2 samples.

Results

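The genes described here are 10 feedback regulators and targets of the transcription factor NF-kB, taken by name from the 52636 gene IDs of both count matrices: Nfkbia, Nfkbie, Bcl3, Tnfaip3, Birc3, Relb, Nfkb2, Icam1, Tnfaip2 and Ier3. Each had 1 matching ID with UMIs (unique molecular identifiers, 1 per captured transcript) in both libraries. Droplet 3' RNA libraries were made from mouse intestine at E18.5 on the C57BL/6 background, 1 library per genotype, and the labels do not say how many embryos each holds. The Casp8-mutant genotype was Casp8 C362A/C362A Mlkl -/-, and the genotype it is set against was Mlkl -/-. Both are thus labelled as lacking Mlkl, the executor of necroptosis, and the labels differ in the Casp8 allele, which changes the catalytic cysteine of caspase-8. The library labelled Casp8 C362A/C362A Mlkl -/- is called Casp8-mutant here and the library labelled Mlkl -/- is called Mlkl-null. The labels give no sample with intact Mlkl and no second sample of either genotype, so no test between genotypes was possible.

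After filtering, 873 of 1014 Casp8-mutant barcodes and 1435 of 1478 Mlkl-null barcodes were kept as cells, with medians of 1957 and 3707 UMIs. The libraries shared 2 barcodes. Mlkl had 13 UMIs of 2601326 in Casp8-mutant cells, in 13 cells of which 11 were epithelial-like, and 1 UMI of 6172180 in Mlkl-null cells. Some Mlkl transcript was therefore counted in the library labelled Casp8 C362A/C362A Mlkl -/-, which goes against that part of its label if the tags lie in the deleted part, and the labels do not say which part that is. The libraries thus differed in Mlkl transcripts as well as in the Casp8 label. The 3' tags do not read the Casp8 codon, and Casp8 itself had 232 UMIs in Casp8-mutant cells and 399 in Mlkl-null cells. Xist had 8271 and 2 UMIs and the Y-linked genes 3 and 584 in Casp8-mutant and Mlkl-null cells, so the libraries also differed in sex. Genotype, sex, embryo and library preparation cannot be told apart in these data. Epithelial-like cells (591 Casp8-mutant and 1188 Mlkl-null) were named from epithelial markers, whose 27 genes summed to 43693 and 58505 CPM (UMIs scaled to a class total of 1e+06), and the class was held by different clusters in the libraries, namely clusters 1, 2, 3.0, 3.1, 3.2, 3.4, 4 and 8 in the Casp8-mutant library and clusters 13, 14, 15, 16, 17, 18 and 20 in the Mlkl-null library. Fibroblast-like cells (58 and 63) also carried smooth muscle markers, at 1069 and 7841 CPM. Myeloid-like cells (110 and 61) came from cluster 9, with 110 and 19 cells, and from cluster 19, with 42 Mlkl-null cells.

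NF-kB dimers are held in the cytoplasm by inhibitors of the IkB family. Signals from receptors such as those for TNF and interleukin-1, or from Toll-like receptors, activate IkB kinase, the inhibitor is degraded, and the dimers enter the nucleus. Several of the genes they then induce encode inhibitors of the same pathway, which closes a negative feedback loop. Nfkbia (IkB-alpha) and Nfkbie (IkB-epsilon) are such inhibitors, and Bcl3 is a nuclear IkB protein that binds the p50 and p52 subunits. Tnfaip3 (A20) edits ubiquitin chains to end signalling, and Birc3 (cIAP2) is a ubiquitin ligase at TNF receptors. Relb and Nfkb2 (p100, the precursor of p52) are the subunits of the non-canonical pathway. Icam1 encodes an adhesion molecule that leukocytes bind, Tnfaip2 a cytosolic protein first known as TNF-induced, and Ier3 a short-lived stress-response protein.

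Promoter windows of 300 bases (250 before to 50 after the start site) were available for 9 of the 10 genes in RefSeq, build GRCm38.p6. They are shown for the 4 genes whose levels separated every epithelial-like cluster between libraries, as described further on, and capitals mark matches to the NF-kB consensus decamer on either strand. Nfkbia lies on the minus strand at chr12:55492598-55492897, Bcl3 on the minus strand at chr7:19822706-19823005, Ier3 on the plus strand at chr17:35821463-35821762 and Tnfaip2 on the plus strand at chr12:111442411-111442710.
Nfkbia: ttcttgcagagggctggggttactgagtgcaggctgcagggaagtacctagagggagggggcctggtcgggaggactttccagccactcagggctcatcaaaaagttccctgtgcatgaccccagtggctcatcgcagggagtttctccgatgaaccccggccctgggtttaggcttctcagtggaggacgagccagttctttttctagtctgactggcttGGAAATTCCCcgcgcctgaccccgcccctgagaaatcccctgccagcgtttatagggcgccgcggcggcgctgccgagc
Bcl3: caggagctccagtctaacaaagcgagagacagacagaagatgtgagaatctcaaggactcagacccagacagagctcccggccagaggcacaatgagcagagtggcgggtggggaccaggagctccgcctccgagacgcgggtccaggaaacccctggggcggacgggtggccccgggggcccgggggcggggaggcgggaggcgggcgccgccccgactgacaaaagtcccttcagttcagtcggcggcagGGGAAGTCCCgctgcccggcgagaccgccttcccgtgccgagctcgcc
Ier3: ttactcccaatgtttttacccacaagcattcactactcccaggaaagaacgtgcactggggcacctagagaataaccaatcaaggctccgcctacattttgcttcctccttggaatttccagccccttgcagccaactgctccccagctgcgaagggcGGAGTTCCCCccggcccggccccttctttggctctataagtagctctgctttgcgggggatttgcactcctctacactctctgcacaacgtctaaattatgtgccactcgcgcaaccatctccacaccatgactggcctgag
Tnfaip2: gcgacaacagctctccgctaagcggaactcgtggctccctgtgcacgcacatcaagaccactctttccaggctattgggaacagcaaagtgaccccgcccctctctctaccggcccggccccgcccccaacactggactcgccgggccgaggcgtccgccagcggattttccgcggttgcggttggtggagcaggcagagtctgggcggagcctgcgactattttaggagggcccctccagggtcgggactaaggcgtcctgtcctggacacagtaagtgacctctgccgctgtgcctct

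The decamer was GGGRNWYYCC, where R is A or G, N any base, W A or T and Y C or T. It was found in the windows of 6 of 9 genes, 66.7%, against 5.14% of 27025 genes with windows. The genes were taken by name as NF-kB regulators and targets, so this contrast is not independent of that choice. The Tnfaip2, Birc3 and Icam1 windows held no match to these letters. The Bcl3 match lay just after the start site and the Nfkbia match 29 bases before it, counted to its first base. Other matches are shown with 10 bases on each side, on the strand of the gene: in Tnfaip3 at chr10:19015526-19015535 and chr10:19015413-19015422, both in the same window, in Nfkbie at chr17:45555594-45555603 and in Nfkb2 at chr19:46304698-46304707. The Nfkb2 match reads the same on both strands and overlaps another that starts 1 base later. A separate Nfkb2 match lay in the same window at chr19:46304726-46304735, and further ones lay in its other windows, which are not shown. These matches describe the sequence and were not tested against the expression values.
Tnfaip3 upstream match: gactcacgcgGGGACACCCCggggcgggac
Tnfaip3 match near the start site: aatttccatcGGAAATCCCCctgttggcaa
Nfkbie match: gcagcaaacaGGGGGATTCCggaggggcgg
Nfkb2 match: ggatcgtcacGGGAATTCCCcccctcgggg

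In epithelial-like cells all 10 genes were higher in the Casp8-mutant library. Together the genes had 668 CPM there, against 230 in the Mlkl-null library, a ratio of 2.90 (95% interval 2.68 to 3.13). Intervals throughout are exact and cover counting error only, since 1 library per genotype gives no spread between samples. A gene was called higher or lower at a ratio of at least 1.5 among genes with at least 20 UMIs over both libraries. By that rule 10 of 10 were higher and 0 lower, where 26.8% of the 13961 genes tested were called higher and 33.2% lower. The median log2 ratio of the 10 was 1.71, against -0.17 over all tested genes. Nfkbie and Tnfaip2 had only 7 Mlkl-null UMIs each and passed the UMI minimum through the Casp8-mutant library. The class was held by different clusters in the libraries, and the part of this make-up in the class ratios was not tested. Ratios in matched clusters are given further on.

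**Figure D1:**
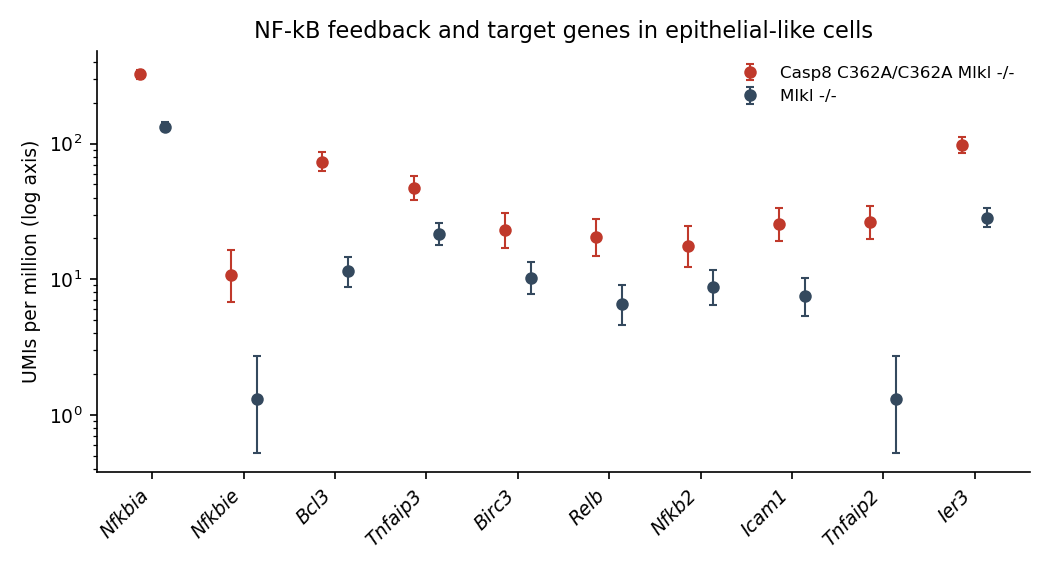
Levels of the 10 genes in epithelial-like cells as CPM on a log axis, Casp8-mutant (red) beside Mlkl-null (dark), with exact 95% Poisson intervals. Each red point lies above its dark partner, with the widest gaps for Tnfaip2, 26.5 and 1.31, and Nfkbie, 10.8 and 1.31. Heights should not be compared between genes, because 3' capture differs between them.

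Among the IkB family genes, Nfkbia had 660 UMIs (324 CPM) in Casp8-mutant epithelial-like cells and 712 UMIs (133 CPM) in Mlkl-null ones. The log2 ratio was 1.28, and the interval of the ratio was 2.19 to 2.71. Nfkbie had 22 UMIs (10.8 CPM) and 7 UMIs (1.31 CPM), a log2 ratio of 2.98 with a wide interval of the ratio, 3.40 to 22.9. Bcl3 had 150 UMIs (73.7 CPM) in Casp8-mutant cells and 61 UMIs (11.4 CPM) in Mlkl-null cells. Its ratio was 6.42 (4.76 to 8.84), and the Bcl3 and Nfkbia intervals, which cover counting error only, did not overlap.

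The ubiquitin enzymes had ratios close to that of Nfkbia. Tnfaip3 had 96 UMIs (47.2 CPM) and 115 UMIs (21.5 CPM) in Casp8-mutant and Mlkl-null epithelial-like cells, a ratio of 2.19 (1.65 to 2.90). Birc3 had 47 UMIs (23.1 CPM) and 55 UMIs (10.3 CPM), a ratio of 2.25 (1.49 to 3.37). Birc2, its close relative, was not called, at 6.39 and 8.04 CPM.

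For the non-canonical subunits, Relb had 42 UMIs (20.6 CPM) in Casp8-mutant and 35 UMIs (6.55 CPM) in Mlkl-null epithelial-like cells, a ratio of 3.14 (1.96 to 5.08). Nfkb2 had 36 UMIs (17.7 CPM) and 47 UMIs (8.79 CPM), the lowest ratio of the 10 at 2.02 (1.27 to 3.17). Nfkb2 overlaps Psd on the opposite strand, and no source used here says whether counting used strand. Psd had 1 UMI in the Casp8-mutant and 29 UMIs in the Mlkl-null library.

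Of the effector genes, Ier3 had 200 UMIs (98.2 CPM) in Casp8-mutant and 152 UMIs (28.4 CPM) in Mlkl-null epithelial-like cells, a ratio of 3.45 (2.78 to 4.29). Icam1 had 52 UMIs (25.5 CPM) and 40 UMIs (7.48 CPM), a ratio of 3.40 (2.22 to 5.29). Tnfaip2 had 54 UMIs (26.5 CPM) and 7 UMIs (1.31 CPM), the highest ratio of the 10 at 19.1 (9.19 to 52.8). Bcl3, Nfkbie and Tnfaip2 stood at percentiles 97.8, 98.2 and 98.9 of all tested genes by ratio, and Nfkb2, the lowest of the 10, at percentile 82.1.

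In fibroblast-like cells 3 of the 10 genes reached 20 UMIs, and 0 were called higher and 0 lower, where 20.9% of 3351 tested genes were called higher and 31.7% lower. Nfkbia had 667 and 938 CPM in Casp8-mutant and Mlkl-null fibroblast-like cells, a ratio of 0.713 (0.561 to 0.897). Ier3 had 365 and 452 CPM, and Icam1 75.5 and 99.5 CPM, with ratio intervals that included 1. The Ier3 log2 ratio of -0.30 turned to 0.61 with means of per-cell values and to 1.55 with thinned cells. Its 58 Casp8-mutant UMIs came from 29 of 58 cells and its 118 Mlkl-null UMIs from 20 of 63 cells. The counting intervals, also that of the summed level, do not cover such unevenness between cells. The summed level was 1327 CPM in Casp8-mutant and 1630 CPM in Mlkl-null fibroblast-like cells, a ratio of 0.814 (0.687 to 0.962). The uneven smooth muscle content given above moves with this comparison, and its part was not tested.

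In myeloid-like cells 5 of the 10 genes were measured, and 1 was called higher and 0 lower, against 26.1% and 23.5% of 2906 tested genes. The 1 called gene was Tnfaip3, with 19 UMIs (98.9 CPM) in Casp8-mutant and 12 UMIs (64.9 CPM) in Mlkl-null cells. Its interval, 0.703 to 3.44, included 1, and at a ratio of 1.502 it lay at the threshold: 0 genes were called higher under 9 alternatives, among them 1 UMI added and no cell filter, and 1 was called lower under the stricter cell filter and with thinned cells. Tnfaip2, which macrophages express, had 250 and 227 CPM in Casp8-mutant and Mlkl-null myeloid-like cells, a ratio of 1.10 (0.712 to 1.71), and its log2 ratio of 0.14 turned to -0.71 with thinned cells. The summed level was 1239 and 1254 CPM, a ratio of 0.988 (0.821 to 1.19).

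The myeloid-like class was not alike in the libraries. The 12 myeloid markers themselves summed to 10848 CPM in Casp8-mutant and 28648 CPM in Mlkl-null myeloid-like cells, and cluster 19, led by Cd74 and H2-Ab1 of antigen presentation, had no Casp8-mutant cells. In cluster 9, which both libraries share, Tnfaip2 had 48 UMIs (250 CPM) in Casp8-mutant and 4 UMIs (75.7 CPM) in Mlkl-null cells, a ratio of 3.30 (1.21 to 12.6). Nfkbia in that cluster had 453 and 852 CPM, a ratio of 0.532 (0.367 to 0.780), and Ier3 187 and 454 CPM, a ratio of 0.412 (0.239 to 0.723). The summed level there was 1239 and 1628 CPM, a ratio of 0.761 (0.592 to 0.986), from 110 and 19 cells. Tnfaip3 had 19 UMIs and 1 UMI in it. In cluster 19 the Mlkl-null cells had 288 CPM of Tnfaip2 and 1105 CPM of the summed genes. The part of this uneven make-up in the class values was not tested.

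Whether the ratio differs between cell classes was not tested, since each class rests on the same pair of libraries. The ratio intervals of Nfkbia and of the summed genes in epithelial-like cells did not overlap those in fibroblast-like, myeloid-like or lymphoid-like cells. They did overlap those in enteroendocrine-like cells, where the ratio was 2.14 (1.10 to 4.10) for Nfkbia, from 19 and 23 UMIs in Casp8-mutant and Mlkl-null cells, and 2.05 (1.26 to 3.28) for the summed genes. In erythroid-like cells the Nfkbia ratio of 1.27 (0.678 to 2.33) overlapped the epithelial interval as well, while the summed ratio of 1.41 (0.894 to 2.20) did not. The lymphoid-like ratios were 0.925 (0.472 to 1.81) for Nfkbia, from 20 and 20 UMIs, and 1.02 (0.601 to 1.73) for the summed genes.

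**Figure D2:**
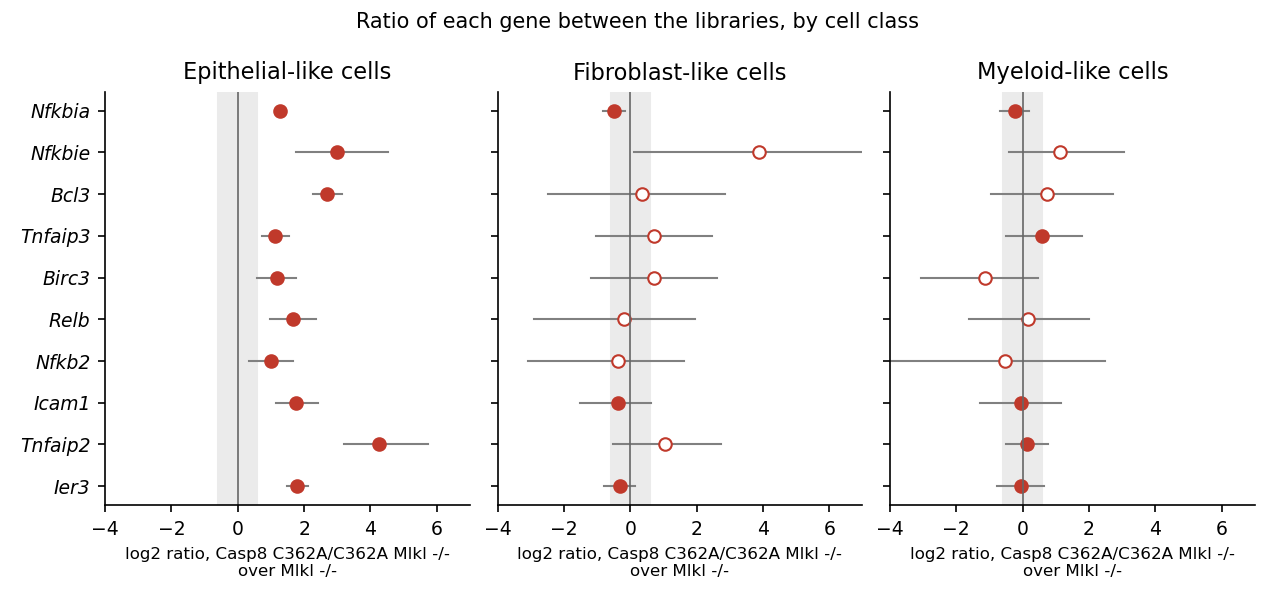
Log2 ratio of each gene, Casp8-mutant over Mlkl-null, with its exact 95% interval, in 3 cell classes. Filled points had at least 20 UMIs, open points fewer, the grey band marks ratios under 1.5 in either direction, and lines that reach the panel edge go on beyond it. All 10 epithelial points lie right of the band, while the measured fibroblast points lie left of 0 and the myeloid points lie around it.

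The classes also differed in the level of these genes within a library. In the Casp8-mutant library the summed level was highest in granulocyte-like cells, at 2140 CPM (1725 to 2624; 19 cells, a class with no Mlkl-null cells). These cells also carried 18512 CPM of epithelial markers, against 8096 in fibroblast-like and 7147 in myeloid-like cells of that library. Fibroblast-like, myeloid-like, lymphoid-like and erythroid-like cells followed at 1327, 1239, 1110 and 951 CPM, and neighbours in that order had overlapping counting intervals. Epithelial-like and enteroendocrine-like cells had 668 and 621 CPM. In the Mlkl-null library the order was fibroblast-like at 1630, myeloid-like at 1254, lymphoid-like at 1091, erythroid-like at 676, enteroendocrine-like at 303 and epithelial-like at 230 CPM. There the intervals of fibroblast-like and myeloid-like cells, and of erythroid-like and enteroendocrine-like cells, did not overlap, and those of the other neighbours did. Enteric-neuron-like, islet-like and acinar-like cells had at most 11 summed UMIs in either library, unnamed clusters at most 14, and these are not placed in the order. Between libraries, the enteroendocrine-like class stood at 621 (430 to 867) in Casp8-mutant and 303 (220 to 409) CPM in Mlkl-null cells, from 34 and 43 UMIs. Its Nfkbia level was 347 and 162 CPM.

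Over the 10 class-by-library sums with at least 20 cells, the genes whose levels followed the summed 10 most closely among 5921 candidates were Tuba1b (Pearson r 0.91), Rdx (0.88), Tubb5 (0.86), Reep5 (0.86) and Ifitm3 (0.85). Among the 10 themselves, Nfkbia and Ier3 were most alike at 0.92, and Tnfaip3 and Bcl3 at 0.87. Points share 2 libraries and their depth, so these coefficients only describe the profiles.

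Within the epithelial-like class the genes were examined by cluster, using clusters of at least 10 cells. The summed level lay between 552 and 1529 CPM in the 8 Casp8-mutant clusters and between 134 and 332 CPM in the 7 Mlkl-null clusters, so the ranges did not overlap. Nfkbia ranged over 271 to 491 CPM in Casp8-mutant clusters and 45.3 to 212 CPM in Mlkl-null clusters. Bcl3 ranged over 18.9 to 176 and 2.83 to 14.8 CPM, Ier3 over 81.6 to 218 and 19.7 to 40.6 CPM, and Tnfaip2 over 16.0 to 54.6 and 0 to 2.83 CPM. These 4 of the 10 genes had every Casp8-mutant cluster above every Mlkl-null cluster, which held for 1.09% of the 13961 tested genes. Some of these points rest on very few UMIs: Tnfaip2 had 1 UMI each in Casp8-mutant clusters 3.4 and 4 and 3 UMIs in clusters 3.0, 3.1 and 3.2, and Bcl3 had 2 UMIs in cluster 3.2, with counting intervals that overlap those of Mlkl-null clusters. The clusters of a library are not replicates, because they come from 1 library.

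The other 6 genes overlapped. Tnfaip3 ranged over 21.8 to 101 CPM in Casp8-mutant clusters and 14.7 to 33.5 CPM in Mlkl-null clusters, highest in Casp8-mutant cluster 8, which was led by Fabp6, the ileal bile acid binding protein. Cluster 4, led by interferon-induced genes such as Ifit1 and Gbp3, had the highest summed level, but it held 13 cells and 28 UMIs of the 10 genes. Its Relb and Nfkbie levels, 218 and 273 CPM, came from 4 and 5 UMIs. Within the Mlkl-null library, Nfkbia was highest at 212 CPM in cluster 14, led by Edn1 and Fgfbp1, and lowest at 45.3 CPM in cluster 20, led by Apoc2, Cd36 and Apoa4 of lipid-absorbing enterocytes.

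**Figure D3:**
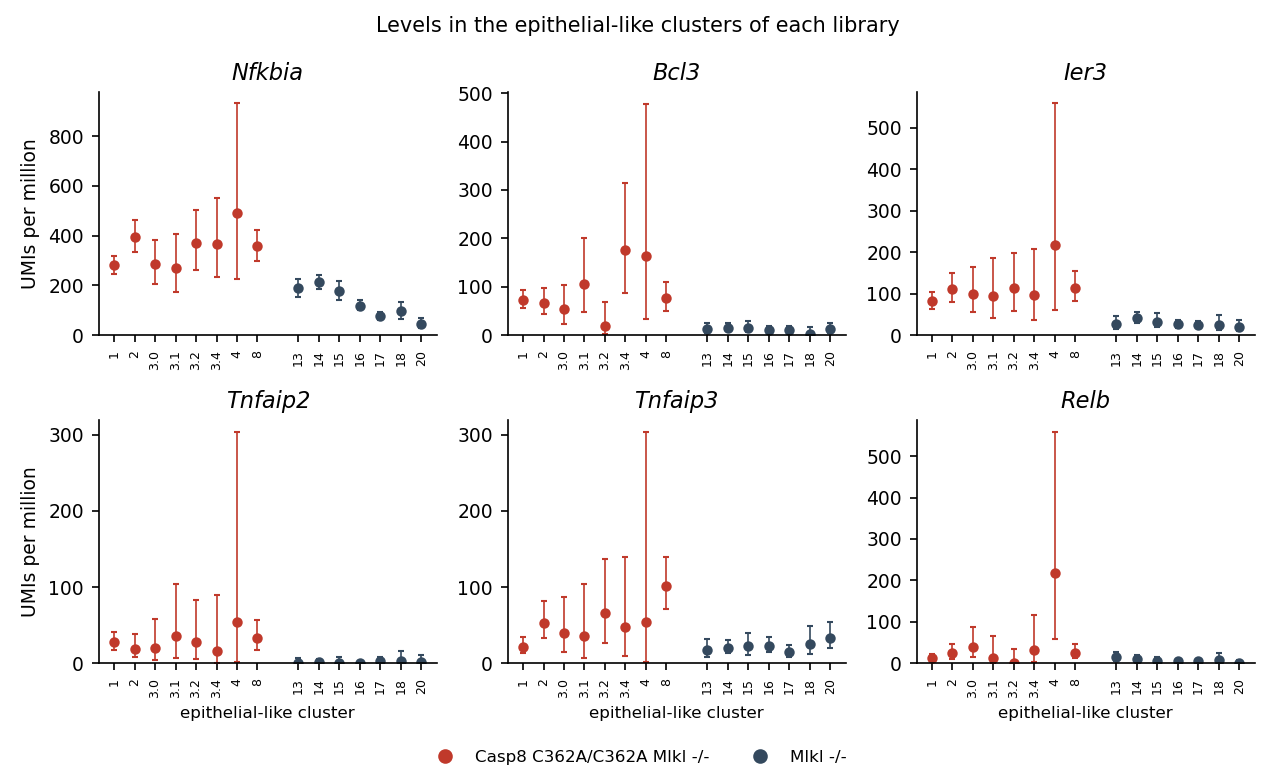
CPM of 6 of the genes in each epithelial-like cluster of at least 10 cells, Casp8-mutant clusters (red) left of Mlkl-null clusters (dark), with exact 95% Poisson intervals. Nfkbia, Bcl3, Ier3 and Tnfaip2 points do not overlap between libraries, whereas Tnfaip3 and Relb points do. Cluster 4 held 13 cells and has the widest bars.

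Because the class was held by different clusters in each library, clusters were also matched by the overlap of their 100 leading genes, without the 10 genes described. Matches were mutual and had at least 50 cells in each library for 3 pairs. Clusters 2 and 13, led by goblet and Paneth cell genes such as Muc2, Tff3 and Defa24, shared 59 of 100 leading genes. Here 5 of the 10 genes were measured and 5 were higher, where 13.7% of 6173 genes were higher and 40.6% lower, and the summed level was 742 and 300 CPM in Casp8-mutant and Mlkl-null cells, a ratio of 2.47 with a lower bound of 2.04. Of these genes, Tnfaip3 (20 and 10 UMIs), Bcl3 (25 and 7) and Ier3 (42 and 16) passed the UMI minimum through the Casp8-mutant cluster. Clusters 8 and 16 shared 51 leading genes. In that pair 7 genes were measured and 7 were higher, against 16.7% of 7702 genes higher and 31.4% lower. The summed level was 802 and 217 CPM, a ratio of 3.70 (3.12 to 4.41). Bcl3, with 28 and 12 UMIs, passed the minimum through the Casp8-mutant cluster here too.

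Clusters 1 and 14 shared 37 leading genes and gave a smaller difference, with 552 and 332 summed CPM in Casp8-mutant and Mlkl-null cells, a ratio of 1.66 (1.45 to 1.91). Of 9 genes measured there, 4 were higher and 0 lower, where 20.1% of 9516 genes were higher and 38.9% lower. The 4 were Tnfaip2, with 24 UMIs and 1 UMI, Bcl3, with 73.5 and 14.8 CPM, Icam1, with 28.7 and 8.30 CPM, and Ier3, with 81.6 and 40.6 CPM. Tnfaip2, Bcl3 and Icam1 passed the UMI minimum through the Casp8-mutant cluster, with 1, 16 and 9 UMIs in the Mlkl-null one. Nfkbia had 280 and 212 CPM, a ratio of 1.32 (1.10 to 1.59). Tnfaip3, Birc3, Relb and Nfkb2 had ratios of 1.08, 0.947, 1.15 and 0.877, each with an interval that included 1. Clusters 1 and 14 held 870599 and 1084436 UMIs. Clusters 2 and 13 had 376152 and 579181 UMIs.

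Per cell, transcripts of these genes were sparse. With cells thinned to 1500 UMIs, 60.0% of 452 Casp8-mutant epithelial-like cells (55.3 to 64.5%) and 25.4% of 1131 Mlkl-null ones (22.9 to 28.0%) had a UMI of any of the 10. The unthinned shares were 76.6% and 49.7%, and thinning left out 139 and 57 shallower cells. Erythroid-like cells, with median depths of 1574 and 3148 UMIs, had such a UMI in 11 of 14 and 10 of 20 thinned cells, above the epithelial share in both libraries, so the shares are not read as a measure of expressing cells. UMIs of 2 or more of the genes were found in 19.7% and 3.63% of thinned Casp8-mutant and Mlkl-null epithelial-like cells. In another draw at the same depth, 2 or more Nfkbia UMIs were found in 11.7% and 1.59% of cells.

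Granulocyte and erythroid markers were more abundant in Casp8-mutant than in Mlkl-null epithelial-like, fibroblast-like and myeloid-like cells. The 13 granulocyte markers summed to 3621 CPM in Casp8-mutant and 45.1 CPM in Mlkl-null epithelial-like cells, where Csf3r and Cxcr2 were at 0. They lay between 3164 and 4903 CPM in every Casp8-mutant epithelial-like cluster, and stood at 3239 and 38.3 CPM in Casp8-mutant and Mlkl-null fibroblast-like cells and at 4144 and 32.4 CPM in myeloid-like cells. The 7 erythroid markers summed to 10450 and 3016 CPM in epithelial-like cells, and the 12 myeloid markers to 355 and 306 CPM. The granulocyte markers in Casp8-mutant epithelial-like cells were at 1.92 to 49.1% of their granulocyte-like level, and at 1.92 to 9.16% for the 10 of 13 with at least 12 granulocyte-like UMIs. Tnfaip2 was at 5.18%, within both ranges, from 22 UMIs (512 CPM) in granulocyte-like cells. Ier3 stood at 22.2%, from 19 UMIs, and Nfkbia at 39.8%, from 35 UMIs, within the wider range alone. The other 7 genes had 1 to 6 granulocyte-like UMIs, too few to place them. The granulocyte-like cells themselves carried 18512 CPM of epithelial markers, so the percentages rest on a reference that held epithelial transcripts too. Erythroid-like cells had 150 and 169 CPM of Tnfaip2 in the Casp8-mutant and Mlkl-null libraries. The part of granulocyte, erythroid and myeloid transcripts in the epithelial difference was not tested.

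**Figure D4:**
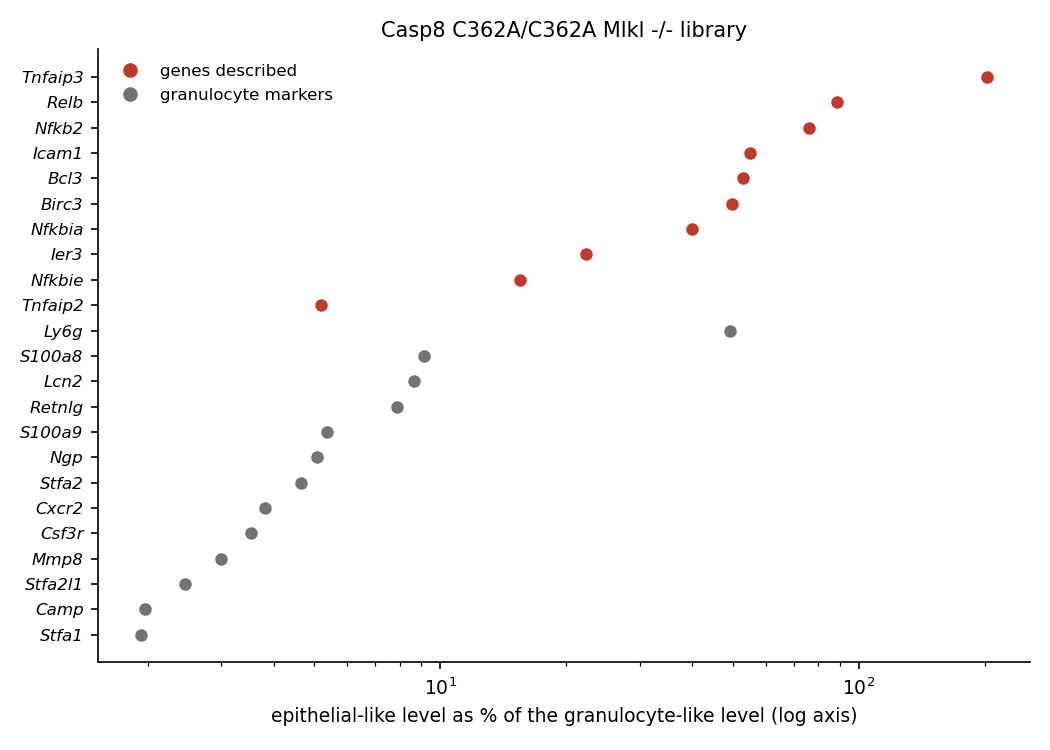
Casp8-mutant library: level in epithelial-like cells as a percentage of the level in its 19 granulocyte-like cells, on a log axis, for the genes described (red) and 13 granulocyte markers (grey). Tnfaip2 lies among the markers, at 5.18%, and Ier3 and Nfkbia lie above S100a8, at 9.16%. The other 7 red points rest on 1 to 6 granulocyte-like UMIs, and Ly6g, at 49.1%, on 4. The granulocyte-like cells also carried epithelial markers.

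The rest of the pathway was described from lists of 102 genes by role. In epithelial-like cells 73 were measured, of which 36 were higher, 5 lower and 32 neither, beside 26.8% higher and 33.2% lower over all tested genes. Ligands were higher in 4 of 4, receptors and their antagonist in 5 of 8, and other NF-kB targets in 19 of 27. The median log2 ratio was 2.55 for ligands and 1.58 for targets. Of 11 ligands only 4 were measured, and the part of transcripts from other cell classes in their levels was not tested. Some measured genes, such as Tnf and Nos2 below, passed the UMI minimum through the Casp8-mutant library. Such genes could only be called higher, and they enter these counts and medians. Adaptors and ubiquitin enzymes were higher in 3 and lower in 2 of 18, and kinases higher in 2 and lower in 3 of 10, shares of higher genes under that of all tested genes. The median log2 ratio of the kinases was -0.40, beside -0.17 over all tested genes.

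Tnf itself was rare, with 19 UMIs (9.33 CPM) in Casp8-mutant and 7 UMIs (1.31 CPM) in Mlkl-null epithelial-like cells, a ratio of 6.83 (2.87 to 20.1). Its receptor Tnfrsf1a had 73.2 and 51.8 CPM and was not called. The dimer subunits Rela and Nfkb1 were not called either, with 51 and 112 UMIs of Rela and 37 and 72 UMIs of Nfkb1 in Casp8-mutant and Mlkl-null cells, ratios of 1.20 and 1.36. Rel, the subunit c-Rel, was higher, at 19.2 and 8.23 CPM. Among the kinases that act on IkB, Ikbkb was higher at 92.3 and 24.7 CPM, Chuk lower at 23.1 and 41.5 CPM, and Ikbkg not called at 12.8 and 18.0 CPM. Map3k14, the NF-kB-inducing kinase of the non-canonical pathway, had 6 and 12 UMIs and was not measured.

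The pathway genes farthest above a ratio of 1 in epithelial-like cells were the neutrophil chemokine Cxcl2, at 467 and 5.61 CPM in Casp8-mutant and Mlkl-null cells, and the interleukin-1 receptor antagonist Il1rn, at 71.2 and 0.561 CPM. Lcn2, an iron-sequestering antimicrobial protein, had 94.8 and 1.31 CPM, Il1b 150 and 3.93, the acute-phase gene Saa3 90.9 and 2.25, the interferon-induced chemokine Cxcl10 110 and 2.99, and the chemerin-binding receptor Ccrl2 54.5 and 2.06 CPM. Nos2, inducible nitric oxide synthase, had 29 UMIs in Casp8-mutant cells and 0 in Mlkl-null cells, at least 25.4-fold higher with the 0 set at 3 counts over the class. Cxcl2 was among the 10 leading genes of the granulocyte-like cluster and Lcn2 is 1 of the granulocyte markers above. Casp8-mutant fibroblast-like cells, described below, also carried Cxcl2, Lcn2 and Il1b, the last at nearly the same level. Il1b and Il1rn were higher in Casp8-mutant myeloid-like cells than in epithelial-like ones. The part of transcripts from other cell classes in these epithelial levels was not tested. The genes farthest below 1 were the adaptor Traf3, at 18.7 and 52.9 CPM, Irak2, at 46.7 and 87.9, the kinase Map3k7 (TAK1), at 6.39 and 16.1, and Chuk.

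**Figure D5:**
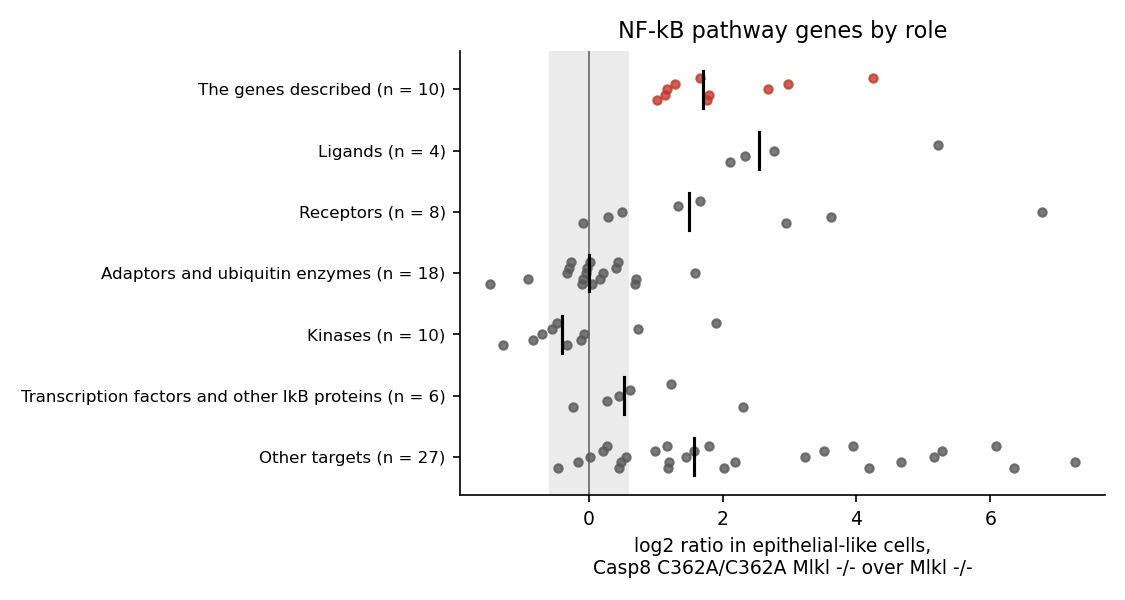
Log2 ratio in epithelial-like cells, Casp8-mutant over Mlkl-null, of the 10 genes (red) and of measured pathway genes grouped by role (grey), with the median of each group as a bar and ratios under 1.5 shaded. The 10 genes, the ligands and many targets lie right of the band, and most adaptors lie inside it, as do 5 of 10 kinases.

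In fibroblast-like cells 26 of the 102 pathway genes were measured, with 13 higher and 4 lower, beside 20.9% higher and 31.7% lower over all tested genes. Targets outside the 10 genes were higher in 10 of 18, among them Saa3, with 133 UMIs in Casp8-mutant and 0 in Mlkl-null cells (at least 72.9-fold higher), the monocyte chemokine Ccl2, at 535 and 149 CPM, complement C3, at 585 and 145 CPM, and Cxcl10, at 390 and 99.5 CPM. Cxcl2 had 428 and 72.7 CPM, Lcn2 126 and 15.3 CPM, Il1b 151 and 19.1 CPM and Ikbkb 157 and 11.5 CPM, all higher. Lower there were Gadd45b, at 56.6 and 207 CPM, and Socs3, a feedback inhibitor of cytokine receptors, at 126 and 245 CPM, and Tnfrsf1a, with 6 and 20 UMIs. Some measured genes passed the UMI minimum through 1 library, Saa3 through the Casp8-mutant one and Tnfrsf1a through the Mlkl-null one. Saa3 could only be called higher, and such genes enter these counts. Cxcl1 was not called, at 365 and 494 CPM. Rela was not called, with 6 and 15 UMIs, and Tnf, Rel, Nfkb1, Chuk, Ikbkg and Map3k14 were under the UMI minimum. Lcn2 is a granulocyte marker, and Cxcl2 was a leading gene of the granulocyte-like cluster. Casp8-mutant fibroblast-like cells carried granulocyte markers at 3239 CPM, and the part of such transcripts in these levels was not tested. By the main rule the feedback genes Nfkbia and Ier3 were not called in a class where other listed targets were. Ier3 was called higher there with means of per-cell values and with thinned cells. In myeloid-like cells 10 of 36 measured pathway genes were higher and 5 lower. The share over all tested genes was 26.1% higher and 23.5% lower, so the count of higher genes was near the background. Cxcl10 was higher, at 385 and 48.7 CPM, as were Il1rn, at 364 and 43.3, and Ptgs2, the inducible cyclooxygenase, at 156 and 32.4 CPM. The survival genes Bcl2a1a, at 385 and 114 CPM, and Bcl2a1d, at 635 and 254 CPM, were higher too, but they are near-identical copies whose reads can be split between them. Lcn2 had 23 UMIs in Casp8-mutant and 0 in Mlkl-null cells, at least 7.38-fold higher. It passed the UMI minimum through the Casp8-mutant library and could only be called higher. It is 1 of the 13 granulocyte markers, which summed to 4144 and 32.4 CPM in these cells, and their part was not tested. Il1b, at 1150 and 773 CPM, and Ccl2, at 359 and 243 CPM, were not called. Nfkbiz, an IkB protein of the nucleus, was lower, at 88.5 and 270 CPM, and so were the activation marker Cd83, at 156 and 389 CPM, Socs3, at 26.0 and 108 CPM, and the chemokine Cxcl16, at 463 and 746 CPM. Rel, Ikbkb and Tnfrsf1a were not called, and Tnf, Rela, Nfkb1, Chuk, Ikbkg and Map3k14 were under the UMI minimum.

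Over all kept cells the 10 genes were likewise 10 higher and 0 lower, where 26.6% of 15307 genes were called higher and 32.1% lower, with summed levels of 782 and 331 CPM. Cell shares differ between the libraries, with 67.7% and 82.8% epithelial-like cells, so this value mixes levels within classes with their proportions.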

How the data were processed

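The deposited files hold raw counts of UMIs per gene and barcode, 1 matrix per genotype, checked as whole numbers. Per the labels' protocols, whole intestine (small intestine by the source label) was digested for 30 min with 0.5 mL of papain solution, and each chip lane received about 10000 cells. Cell Ranger 3.0.2, Seurat 3.0 and the mm10 build appear in the submitters' processing notes. No source used here gives the authors' barcode filter or strand setting. GENCODE M21 gave symbols for 52489 of 52636 IDs.

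Cells with under 500 genes (139 Casp8-mutant, 39 Mlkl-null) or over 20% mitochondrial UMIs (0 and 0) and scrublet doublets (2 and 4) were left out. Scrublet marked so few that undetected doublets are likely. Scanpy 1.11.5 clustered both libraries jointly (2000 variable genes per library, 30 components, 15 neighbours, Leiden resolution 1, seed 0). Non-epithelial names needed at least 3 markers among 50 leading genes and at least 3 detected in 10% of cells. Epithelial names needed at least 12 markers detected in 10% of cells and at 2 times their mean over reference clusters. Reference clusters had at least 3 leading markers of another class, with granulocyte, enteroendocrine and islet ones left out. A cluster named epithelial also had under 3 leading markers of any other class. These naming rules were revised after the clusters had been seen. Clusters mixing epithelial with other markers were split once more.

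UMIs were summed per class and library and scaled to CPM (class total 1e+06). Log2 ratios used 0.5 UMI added. Intervals are exact Poisson, conditional exact or Clopper-Pearson at 95%. A floor of 3 counts was used against 0. The ratio and interval functions were tested on simulated data. With 1 library per genotype there is no p-value. Named genes are the 10 members, the 8 higher and 4 lower pathway genes per class with the interval bound nearest to 1 farthest from it, and Rela, Nfkb1, Rel, Tnf, Tnfrsf1a and the IkB kinase genes. Members and lists were chosen with earlier results of these data known. Ratios within myeloid-like cluster 9 and in the enteroendocrine-like, erythroid-like and lymphoid-like classes were added after values had been seen.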

Additional observations from a re-analysis of the deposited data

How the results depend on the processing

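In epithelial-like cells 10 genes were higher and 0 lower under another scaling (median of ratios), totals without mitochondrial, ribosomal and haemoglobin genes, 1 UMI added, a stricter cell filter, no cell filter, doublets kept, Leiden resolutions of 0.5 and 2, means of per-cell values, a 2-fold rule and a rule that the interval leave out 1. The count was 9 after thinning to 1500 UMIs and with a minimum of 50 UMIs, which fewer genes reach. Over all cells it was 10 under each of these alternatives, except 8 under the 2-fold rule. Of 120 epithelial values of single genes, 115 moved by less than their counting interval. The exceptions were Nfkbia at 1.48, 1.63 and 1.59 (median of ratios, per-cell means, thinning), Relb at 2.47 (per-cell means), all further from 0, and Tnfaip2, which had 23 thinned Casp8-mutant UMIs and 0 Mlkl-null ones, at least 19.2-fold higher with the 0 set at 3 counts over the class. Median-of-ratios scaling shifted all epithelial genes by 0.19 on the log2 scale. Of the alternatives chosen after seeing the data, leaving out clusters led by small nuclear RNA genes left the epithelial count at 10. Leaving out granulocyte-rich cells removed 3 Casp8-mutant and 1 Mlkl-null epithelial-like cells, too few to move the count, and is no check on granulocyte transcripts in the others.

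In fibroblast-like cells 1 gene was lower under the stricter cell filter, at Leiden resolution 2 and after thinning, and 2 were lower with no cell filter. There 1 gene was higher under per-cell means and after thinning. This was Ier3, at 0.61 and 1.55 on the log2 scale under those settings, beside -0.30 as reported, so its direction changed. In myeloid-like cells 0 genes were higher under median of ratios, 1 UMI added, the stricter filter, no filter, doublets kept, thinning, the 2-fold rule, the interval rule and a minimum of 50 UMIs, and 1 was lower under the stricter filter and after thinning. The cause was not tested. No paired analysis was possible because each genotype has 1 library. In fibroblast-like and myeloid-like cells 7 and 5 of the 10 genes had under 20 UMIs, which limits those comparisons.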
